A study of Saccharomyces cerevisiae with 9 samples.

Results

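The genes described here encode the proteins of the cytosolic ribosome of budding yeast, Saccharomyces cerevisiae. They were chosen by symbol, as RPL or RPS followed by a number and an optional A or B, or as RPP0, RPP1 or RPP2 with an optional A or B, among the probe sets (groups of oligonucleotides that read 1 transcript) annotated to a single S. cerevisiae gene. The rule found 148 probe sets for 128 of the 5449 genes on the array. One of these, RPP1, matches by symbol only: it encodes a protein of RNase P, the enzyme that trims transfer RNA precursors, and is given apart. The other 127 comprise 52 genes of the small subunit, 70 of the large subunit and 5 of the stalk, and all 127 lay above background on every array. A further 10 ribosomal protein genes of the RefSeq gene table were not analysed here.

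The cells were of BY4741, a haploid laboratory strain, grown to log phase in YPD, a rich medium, at 30 °C, then washed and suspended in water. The unfrozen group (0 h) was sampled at that point, and the 2 other groups were kept at -30 °C, 1 over 24 h and 1 over 48 h, and thawed in warm water (30 °C, 10 min) before extraction. Poly(A)-enriched RNA from 3 samples per group was hybridised to 9 single-colour Affymetrix yeast arrays. All groups shared the wash and the suspension in water, and only the frozen groups had the minutes of thawing in a bath, so freezing, storage and thaw cannot be told apart. The labels describe independent triplicates in 1 place and 2 independent experiments in another, so it is not settled how far the spread between arrays of a group, on which the p-values rest, is technical.

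A yeast ribosome carries a small subunit, which reads the messenger RNA, and a large subunit, which forms the peptide bond. Most of its proteins are encoded by a pair of near-identical genes, named A and B, that derive from an ancient genome duplication. In growing yeast these genes are among the most strongly transcribed of the genome, they are driven together by Rap1, Fhl1, Ifh1 and Sfp1 under the control of the TOR and protein kinase A pathways, and they are known to be turned down together when growth stops or stress sets in.

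Values are deposited signals per probe set taken to log2, with arrays brought to a common median of their S. cerevisiae probe sets, and are called scaled log2 signals. The deposited medians of S. cerevisiae probe sets were 392, 201 and 335 on unfrozen replicates 1 to 3, 303, 237 and 679 on the 24 h arrays, and 303, 289 and 726 on the 48 h arrays. Replicate 3 of each frozen group thus stood apart as the array with the highest median of its group. The 17 probe sets for ribosomal RNA had median scaled log2 signals of 5.45 to 7.02 on unfrozen arrays, 7.94 to 10.43 on 24 h arrays and 7.64 to 9.80 on 48 h arrays. All 6 frozen arrays were above the 3 unfrozen ones in this measure, whose part in the values below was not tested. URA3 and MET17, genes deleted in BY4741, had mean scaled log2 signals of 0.68 and 2.04, under the background threshold of 2.21 (the 95th percentile of fission yeast probe sets), and LEU2, also deleted, had 2.62.

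As a family, ribosomal protein transcripts were lower on frozen than on unfrozen arrays by less than the arrays of either frozen group differed among themselves, and no single member passed the test at either time. The median over the 127 members was 13.07, 13.39 and 12.94 on the unfrozen replicates 1 to 3, 12.97, 13.18 and 12.01 on the 24 h replicates, and 12.89, 12.89 and 12.05 on the 48 h replicates. The lowest values were those of replicate 3 of each frozen group, while replicates 1 and 2 of the 24 h group lay within the unfrozen range and the 48 h replicates 1 and 2 lay just under it. The median fitted difference was -0.40 at 24 h (range over members -0.57 to 0.09), with 126 of 127 members below 0. At 48 h it was -0.52 (range -0.71 to -0.04), with all 127 members below 0. Without both frozen replicate 3 arrays the medians were -0.055 at 24 h and -0.21 at 48 h.

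**Figure D1:**
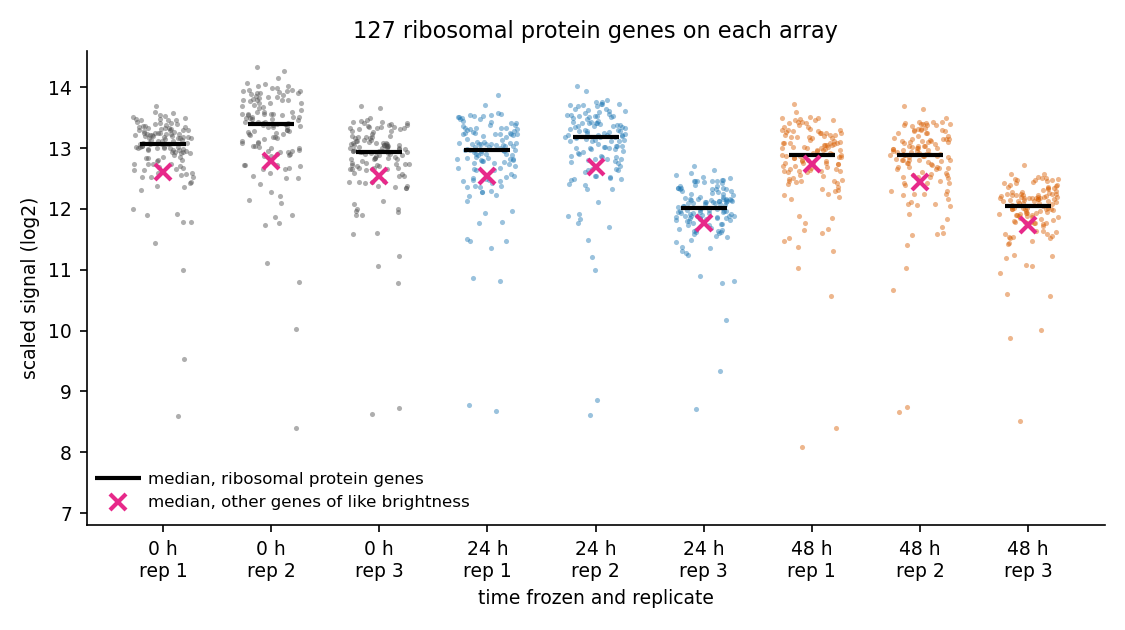
Scaled log2 signal (vertical axis) of the 127 ribosomal protein genes (points) on each of the 9 arrays, by time frozen and replicate, with the median of the members (bar) and that of the 108 other genes of like brightness (cross). The member medians lie between 12.89 and 13.39 except on the replicate 3 arrays frozen for 24 h and 48 h, where they are 12.01 and 12.05.

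At 24 h, 0 of 127 members had a limma adjusted p under 0.05, against 1.00% of the 5396 genes tested, and 0 had an unadjusted p under 0.05, against 10.7% of all genes. At 48 h, 0 of 127 members were called, against 2.91% of all genes, and 3 (RPL22B, RPS9A and RPS10A) had an unadjusted p under 0.05, against 16.4% of all genes. Among the 108 other genes of like brightness, an unadjusted p under 0.05 was found for 0 at 24 h and for 3 (2.78%) at 48 h, close to the members. The lowest adjusted p of any member was 0.602 at 24 h and 0.223 at 48 h, both for large subunit genes. The standard error of a member's difference had a median of 0.38, so that at this number of arrays a difference of the size of the family median lay within 2 standard errors of 0 for most members.

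Members were also counted by whether the arrays of the groups overlapped. At 24 h all 3 frozen arrays lay below all 3 unfrozen ones for 5 members (3.94%), namely RPS0A, RPS26B, RPL6B, RPL15A and RPL22B, against 11.6% of all genes. At 48 h this held for 46 members (36.2%), against 10.6% of all genes and 22.2% of the 108 other genes of like brightness. At 24 h the share among those 108 genes was 13.9%, above that of the members. These counts moved with the scaling. At 24 h the count was 5 members (3.94%) with quantile normalization, against 11.8% of all genes, 1 (0.787%) in the values as deposited, against 0.574%, and 42 (33.1%) with arrays set to the median of all probe sets, against 39.9%. At 48 h it was 8 members (6.30%) with quantile normalization, against 9.69% of all genes, 0 in the values as deposited, against 0.519%, and 121 (95.3%) with arrays set to the median of all probe sets, against 32.4%. Among the 108 genes of like brightness the shares at 24 h and 48 h were 6.48% and 2.78% with quantile normalization. They were 0.926% at both times as deposited, and 56.5% and 86.1% with the median of all probe sets. Under the scaling to the S. cerevisiae median, no overlap at 48 h was found for 19 of 52 small subunit genes, 27 of 70 large subunit genes and 0 of 5 stalk genes. Leaving out both frozen replicate 3 arrays gave the same counts, 5 and 46 members (891 and 898 of all 5396 genes). Those arrays were the lowest for nearly all members, as 64 members had their lowest value on frozen 24 h replicate 3 and 56 on frozen 48 h replicate 3. The highest value was on unfrozen replicate 2 for 110 members, and without that array the family median was -0.28 at 24 h and -0.39 at 48 h.

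The members moved with each other from array to array. The median pairwise Pearson correlation over the 9 arrays was 0.96 among the 127 members, as a description, since every pair shares the arrays and their scaling, and it was 0.92 among the 108 genes of like brightness. After each array was set to the median of those 108 genes, the same correlations were 0.58 among members and 0.06 among the other genes. The value of 0.06 is lowered by the scaling itself, which took from each array the median of those same genes. The members were not part of that median, so 0.58 and 0.06 are not a like comparison.

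**Figure D2:**
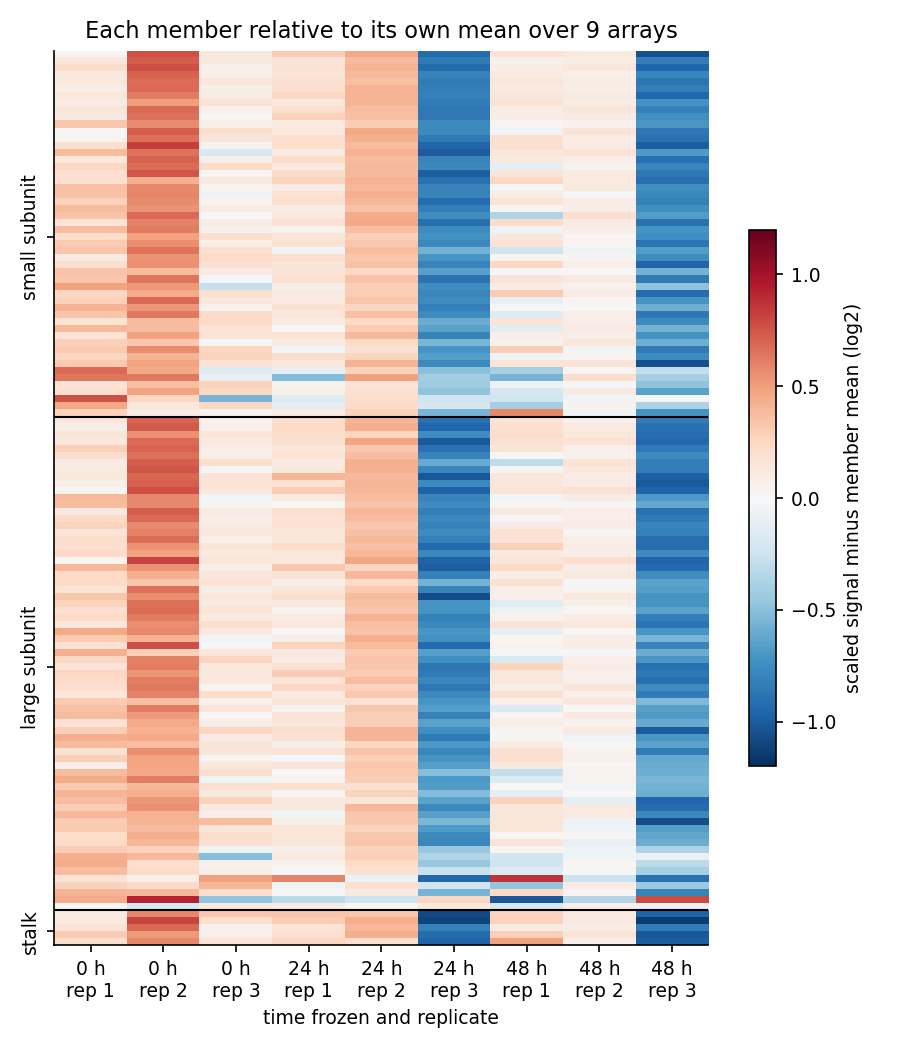
Scaled log2 signal of each of the 127 members on each array minus its own mean over the 9 arrays (colour), with members grouped by subunit and sorted by mean signal within each group, and arrays by time frozen and replicate. The columns of unfrozen replicate 2 (high for most members) and of frozen 24 h and 48 h replicate 3 (low for most members) run through all 3 groups of members.

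Bright probe sets as a class were lower on average in the frozen groups under this scaling, though not on every frozen array. When all genes were sorted into 10 bins of equal size by mean signal, 123 of the 127 members fell in the brightest bin. The 417 other genes of that bin had median differences of -0.24 at 24 h and -0.25 at 48 h, and the genes of the dimmest bin had medians of 0.21 and 0.28. Over all genes the medians were -0.02 and -0.03. The closest set, the 108 other genes whose mean signal lay between 12.07 and 13.25 (the 10th to 90th percentile of the members), had medians of -0.35 at 24 h and -0.40 at 48 h, with 102 and 100 of 108 below 0. Their median signal was 12.60, 12.79 and 12.55 on unfrozen arrays, 12.54, 12.69 and 11.77 on 24 h arrays, and 12.74, 12.45 and 11.74 on 48 h arrays. Replicate 3 was thus the lowest array of each frozen group. Frozen 24 h replicate 2 and frozen 48 h replicate 1 lay within the unfrozen range. Of these 108 genes, 0 were called at either time.

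**Figure D3:**
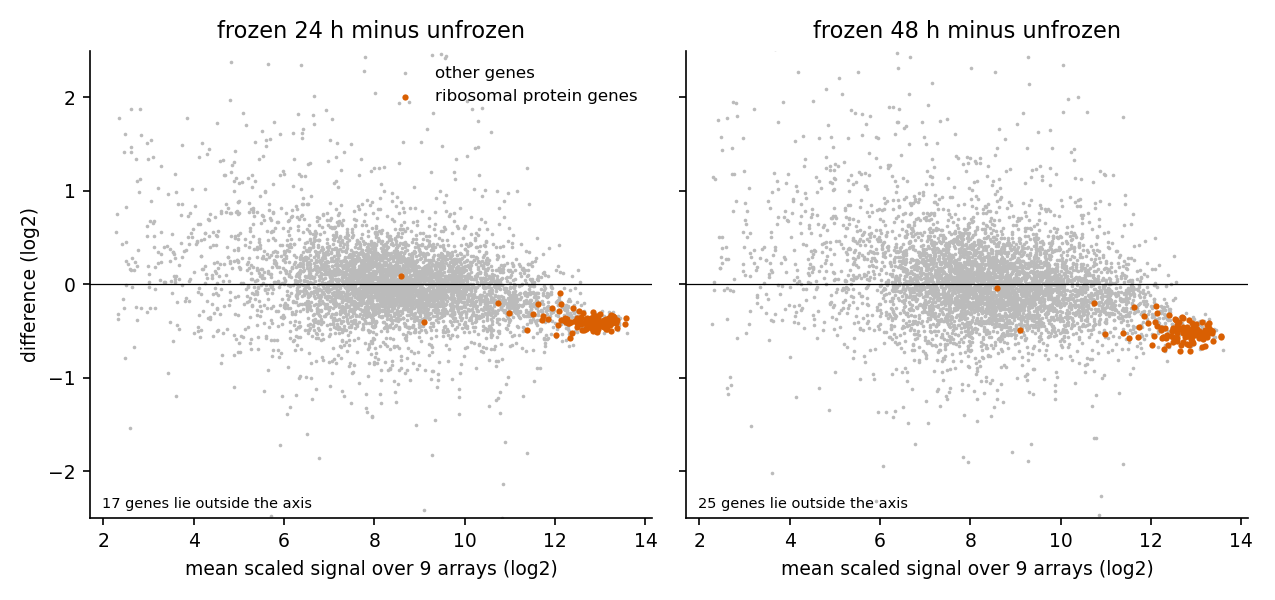
Difference from unfrozen in log2 (vertical axis) against the mean scaled log2 signal over 9 arrays (horizontal axis) for ribosomal protein genes and for all other genes tested, at 24 h (left) and 48 h (right). The members sit at the bright end, where other genes of the brightest bin have medians of -0.24 and -0.25.

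The deposited signals of the members varied less over the arrays than those of all S. cerevisiae probe sets, and so did those of other genes of like brightness. The deposited member median was 9586, 6138 and 7490 on the unfrozen arrays, 6934, 6261 and 7973 on the 24 h arrays and 6566, 6249 and 8755 on the 48 h arrays, a spread of 1.56-fold, whereas the median of all S. cerevisiae probe sets spread 3.61-fold over the same arrays. In these unscaled values the replicate 3 arrays of the frozen groups were the highest of their groups for the members, not the lowest. The deposited median of the genes of like brightness ran from 4052 to 7049 over the arrays. It too was highest on replicate 3 in each frozen group (6728 at 24 h and 7049 at 48 h). The highest single signal of an array was 11107 to 16236, and on 4 of 9 arrays it belonged to RPS31, which encodes a small subunit protein made as a fusion to ubiquitin. The members' share of the summed signal of all genes was 20.5%, 23.6% and 19.2% on unfrozen arrays, 19.6%, 21.4% and 14.0% on 24 h arrays, and 17.3%, 19.3% and 14.0% on 48 h arrays.

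The size of the family's difference depended on the scaling. With quantile normalization the median differences were -0.02 at 24 h and -0.04 at 48 h, with 80 and 94 of 127 members below 0. With the values as deposited they were -0.11 and -0.09, while the median of all genes was 0.28 and 0.40. With each array set to the median of all probe sets they were -0.73 and -0.86, while the median of all genes was -0.34 and -0.37. Only this last scaling called members at 48 h, namely RPS7B, RPS10A, RPS26B and RPL22B, all lower on frozen arrays. Under it the genes of like brightness had medians of -0.67 and -0.74. The share of all genes called under it is not given here, so these calls are not read as a result about the members. With each array set to the median of the genes of like brightness the member medians were -0.08 and -0.18, with 114 and 120 of 127 members below 0. On that scale the differences of the genes of like brightness themselves had medians of -0.03 and -0.06, and those of all genes 0.30 and 0.31.

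**Figure D4:**
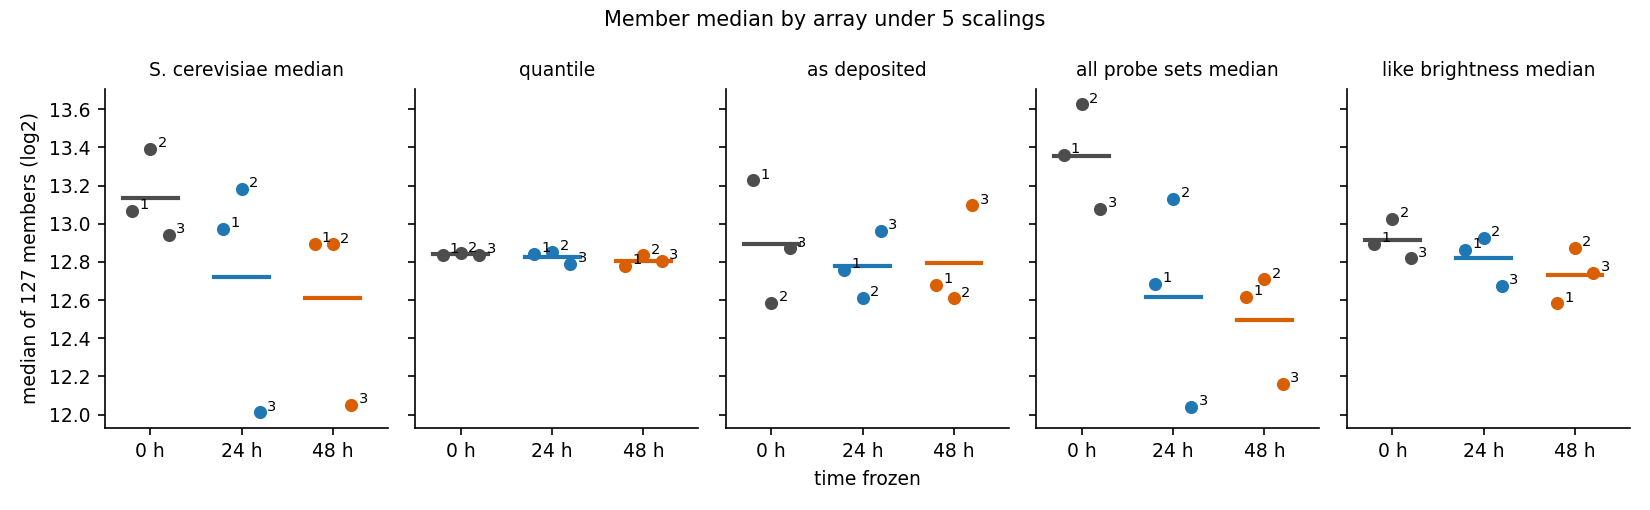
Median log2 signal of the 127 members on each array (points, numbered by replicate) by time frozen, with the mean of the 3 arrays (bar), under 5 scalings. The median differences from unfrozen range from -0.02 and -0.04 at 24 h and 48 h with quantile normalization to -0.73 and -0.86 with the median of all probe sets.

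Within single arrays, the family stood above the genes of like brightness by 0.47, 0.60 and 0.39 (log2 difference of medians) on unfrozen arrays, by 0.43, 0.50 and 0.24 on 24 h arrays, and by 0.15, 0.45 and 0.31 on 48 h arrays. Frozen and unfrozen arrays overlapped at both times. On arrays set to those genes, all 3 frozen arrays lay below all 3 unfrozen ones for 6 members (4.72%) at 24 h, against 2.19% of all genes, and for 11 members (8.66%) at 48 h, against 1.93% of all genes. The same share among the genes of like brightness was 9.26% and 7.41%, above the members' share at 24 h and close to it at 48 h. On these arrays 0 members were called at 24 h (0.185% of all genes) and 0 at 48 h (1.56%), and an unadjusted p under 0.05 was found for 1 member at 24 h (RPS0A), against 8.52% of all genes, and 6 at 48 h (RPS10A, RPS18B, RPS28B, RPL13A, RPL15A and RPL33B), against 13.8%.

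The roles of the members are set side by side here without a test. Small subunit genes had median differences of -0.40 at 24 h and -0.52 at 48 h, large subunit genes -0.40 and -0.51, and stalk genes -0.48 and -0.52. On arrays set to genes of like brightness the same medians were -0.08 and -0.18 for the small subunit, -0.09 and -0.17 for the large subunit, and -0.16 and -0.18 for the stalk.

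In the small subunit, the lowest differences at 24 h were those of RPS0A, RPS10B and RPS28B. RPS0A, which encodes a protein needed for late maturation of the subunit, had scaled log2 signals of 12.64, 12.89 and 12.58 on unfrozen arrays, 12.29, 12.49 and 11.61 on 24 h arrays, and 12.62, 12.29 and 11.47 on 48 h arrays. All 3 of its 24 h arrays lay below the unfrozen ones, whereas frozen 48 h replicate 1 lay among them. Its differences were -0.57 ± 0.34 at 24 h and -0.58 ± 0.34 at 48 h (SE, n = 3 a group, limma adjusted p = 0.616 and 0.446).

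RPS10A and RPS10B encode a protein of the head of the small subunit, near the messenger RNA entry site. RPS10A had 13.19, 13.50 and 13.06 on unfrozen arrays, 12.82, 13.23 and 12.29 on 24 h arrays, and 12.62, 12.81 and 12.19 on 48 h arrays, so that the 48 h arrays did not overlap the unfrozen ones. Its difference of -0.71 ± 0.32 at 48 h was the lowest of all members (SE, n = 3 a group, limma adjusted p = 0.3), after -0.47 ± 0.32 at 24 h. This value comes from a probe set of the type that can bind related transcripts, and the gene's other probe set gave -0.23 at 24 h and -0.37 at 48 h, the widest gap among the 20 members with 2 probe sets. RPS10B, read by the same type of probe set, had 12.67, 12.66 and 11.95 on unfrozen arrays, 11.51, 12.52 and 11.61 on 24 h arrays and 11.47, 12.24 and 11.64 on 48 h arrays, and here the groups overlapped.

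RPS28B is known for a protein that binds its own transcript and speeds its decay. Its signals were 12.97, 13.27 and 12.87 on unfrozen arrays, 12.77, 12.99 and 11.88 on 24 h arrays and 12.48, 12.72 and 11.78 on 48 h arrays, with no overlap between 48 h and unfrozen arrays. The differences were -0.49 ± 0.36 and -0.71 ± 0.36 (SE, n = 3 a group, limma adjusted p = 0.714 and 0.364). RPS18B, for a protein of the subunit head that faces the large subunit, differed by -0.48 ± 0.37 at 24 h and -0.67 ± 0.37 at 48 h, again with 48 h arrays of 13.00, 13.16 and 12.33 below unfrozen arrays of 13.37, 13.79 and 13.35.

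The small subunit genes nearest to 0 were RPS14B, RPS19A and RPS22B at both times. RPS14B, whose protein sits on the platform of the subunit and represses splicing of its own transcript, differed by -0.20 ± 0.32 at 24 h and -0.20 ± 0.32 at 48 h, and its direction turned positive in values as deposited (0.096 and 0.23) and against genes of like brightness (0.12 and 0.14). RPS19A, the yeast counterpart of a gene mutated in human Diamond-Blackfan anaemia, had 12.38, 11.87 and 11.06 on unfrozen arrays, 11.48, 11.83 and 11.38 on 24 h arrays and 11.38, 11.57 and 11.63 on 48 h arrays. Its unfrozen arrays spread more than any frozen group, and its differences were -0.21 ± 0.31 and -0.24 ± 0.31, which became 0.097 and 0.063 without unfrozen replicate 1. RPS22B, for a protein of the body of the subunit, differed by -0.26 ± 0.30 and -0.33 ± 0.30, and by 0.060 and 0.015 against genes of like brightness.

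In the large subunit, RPL15A, RPL33B and RPL31A had the lowest differences at 24 h and RPL13A, RPL29 and RPL15A at 48 h. RPL15A had 12.74, 12.90 and 12.65 on unfrozen arrays, 12.50, 12.51 and 11.73 on 24 h arrays and 12.65, 12.25 and 11.43 on 48 h arrays. Its 24 h arrays lay below the unfrozen ones, and frozen 48 h replicate 1 equalled the lowest unfrozen array to the second decimal. The differences were -0.52 ± 0.35 and -0.65 ± 0.35 (SE, n = 3 a group, limma adjusted p = 0.672 and 0.39).

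RPL13A had 12.60, 12.71 and 12.67 on unfrozen arrays, 12.36, 12.61 and 11.75 on 24 h arrays and 12.43, 12.24 and 11.22 on 48 h arrays. The 48 h arrays, with an SD of 0.65, did not overlap the unfrozen ones, with an SD of 0.057. Its differences were -0.42 ± 0.35 and -0.69 ± 0.35, the lowest of the large subunit at 48 h (SE, n = 3 a group, limma adjusted p = 0.756 and 0.362). RPL33B differed by -0.50 ± 0.34 at 24 h and -0.65 ± 0.34 at 48 h, with 48 h arrays of 12.74, 12.85 and 12.14 below unfrozen arrays of 13.29, 13.41 and 12.96. RPL31A, for a protein beside the exit of the peptide tunnel, differed by -0.50 ± 0.41 and -0.52 ± 0.41. RPL29 differed by -0.36 ± 0.38 and -0.66 ± 0.38, and its frozen 48 h replicate 2 (13.37) lay among the unfrozen arrays (13.30 to 13.92).

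The large subunit genes nearest to 0 were RPL15B, RPL39 and RPL12A. RPL15B, the partner of RPL15A, was the only member above 0 at 24 h, with 8.60, 8.40 and 8.73 on unfrozen arrays, 8.68, 8.61 and 8.70 on 24 h arrays and 8.40, 8.67 and 8.52 on 48 h arrays. All 9 of its values overlapped, and its differences were 0.09 ± 0.15 and -0.04 ± 0.15 (SE, n = 3 a group). It was also the dimmest probe set of the family, so it lay outside the brightness class of the other members. RPL39, for a small protein that lines the peptide exit tunnel, differed by -0.10 ± 0.30 and -0.23 ± 0.30, and by 0.24 and 0.12 under quantile normalization. RPL12A, for a protein at the base of the stalk, differed by -0.21 ± 0.25 and -0.30 ± 0.25, and by 0.12 and 0.014 under quantile normalization.

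The stalk is the flexible arm of the large subunit that recruits and activates the GTPase translation factors, and is built of P0, encoded by RPP0, and of the P1 and P2 proteins. RPP0 had 13.04, 13.74 and 13.14 on unfrozen arrays, 13.22, 13.36 and 11.82 on 24 h arrays and 13.20, 13.03 and 11.79 on 48 h arrays. In both frozen groups replicate 3 was lower than the other 2 arrays by more than 1 on the log2 scale, and the groups overlapped. The differences of RPP0 were -0.51 ± 0.50 and -0.63 ± 0.50, those of RPP1A -0.48 ± 0.46 and -0.53 ± 0.46, and those of RPP1B -0.39 ± 0.44 and -0.48 ± 0.44. RPP2A differed by -0.48 ± 0.43 at 24 h and -0.46 ± 0.43 at 48 h, and RPP2B by -0.38 ± 0.40 and -0.52 ± 0.40 (SE, n = 3 a group, limma adjusted p from 0.562 to 0.815 over the 5 genes and both times). The median standard error was 0.44 in stalk genes and 0.38 in all members.

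Besides RPS10A, RPL22B and RPS9A were chosen after their values were seen, as the members with an unadjusted p under 0.05 at 48 h. Both are known for transcripts whose splicing is held back by the protein they encode. RPL22B had 11.78, 11.74 and 11.91 on unfrozen arrays, 11.48, 11.71 and 11.28 on 24 h arrays and 11.03, 11.60 and 11.07 on 48 h arrays, with no overlap between either frozen group and the unfrozen one. Its differences were -0.32 ± 0.22 and -0.58 ± 0.22 (SE, n = 3 a group, limma adjusted p = 0.678 and 0.223). RPS9A had 11.45, 11.11 and 11.23 on unfrozen arrays, 10.86, 11.22 and 10.78 on 24 h arrays and 10.57, 11.02 and 10.60 on 48 h arrays, where only the 48 h arrays cleared the unfrozen ones. Its differences were -0.31 ± 0.20 and -0.53 ± 0.20 (SE, n = 3 a group, limma adjusted p = 0.665 and 0.233). Both have dimmer probe sets and smaller standard errors than the typical member, so that differences close to the family median came nearer to the threshold.

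RPL41A, for the shortest protein of the ribosome, went against the array pattern of the family in the frozen groups. On unfrozen arrays its order was that of the family median. It had 9.54, 10.03 and 8.63 on unfrozen arrays, 8.78, 8.85 and 9.34 on 24 h arrays and 8.08, 8.75 and 9.88 on 48 h arrays, so that replicate 3 was its lowest unfrozen array and its highest frozen array in both frozen groups. Over all arrays its differences were -0.41 ± 0.45 and -0.49 ± 0.45 (SE, n = 3 a group, limma adjusted p = 0.812 and 0.619). Without replicate 3 in each group they were -0.97 ± 0.27 and -1.37 ± 0.27, and RPL41A was then the only member called at 48 h. The share of all genes called in that fit is not given here. That fit was added after the data were seen, and it drops the replicate 3 arrays, among which RPL41A was higher on frozen than on unfrozen. Its mean signal of 9.10 also lay outside the brightness class of the other members (12.07 to 13.25). Its probe set is of the type that can bind related transcripts, and its partner RPL41B was not analysed here.

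The A and B copies of a protein were compared by their log2 ratio on each array, which a scaling by a single factor per array leaves as it is (quantile normalization does not) and which shows unequal change only. Of 50 pairs with both genes listed, 49 had a probe set of its own for each copy. In a fit with all genes, 0 of 49 pairs had an adjusted p under 0.05 at 24 h, against 0.973% of the 5445 genes and pairs fitted, and 0 of 49 at 48 h, against 2.75%. An unadjusted p under 0.05 was found for 0 pairs at either time. The change in ratio was under 0.2 in size for 46 pairs at 24 h and 41 at 48 h, with medians of that size of 0.06 and 0.07. The 95% interval of a pair reached 0.39 to either side of its estimate in the median (range 0.30 to 0.84). These intervals are not adjusted for the number of genes and pairs fitted. Inequalities between copies smaller than this, and some larger ones, would therefore not have been called.

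**Figure D5:**
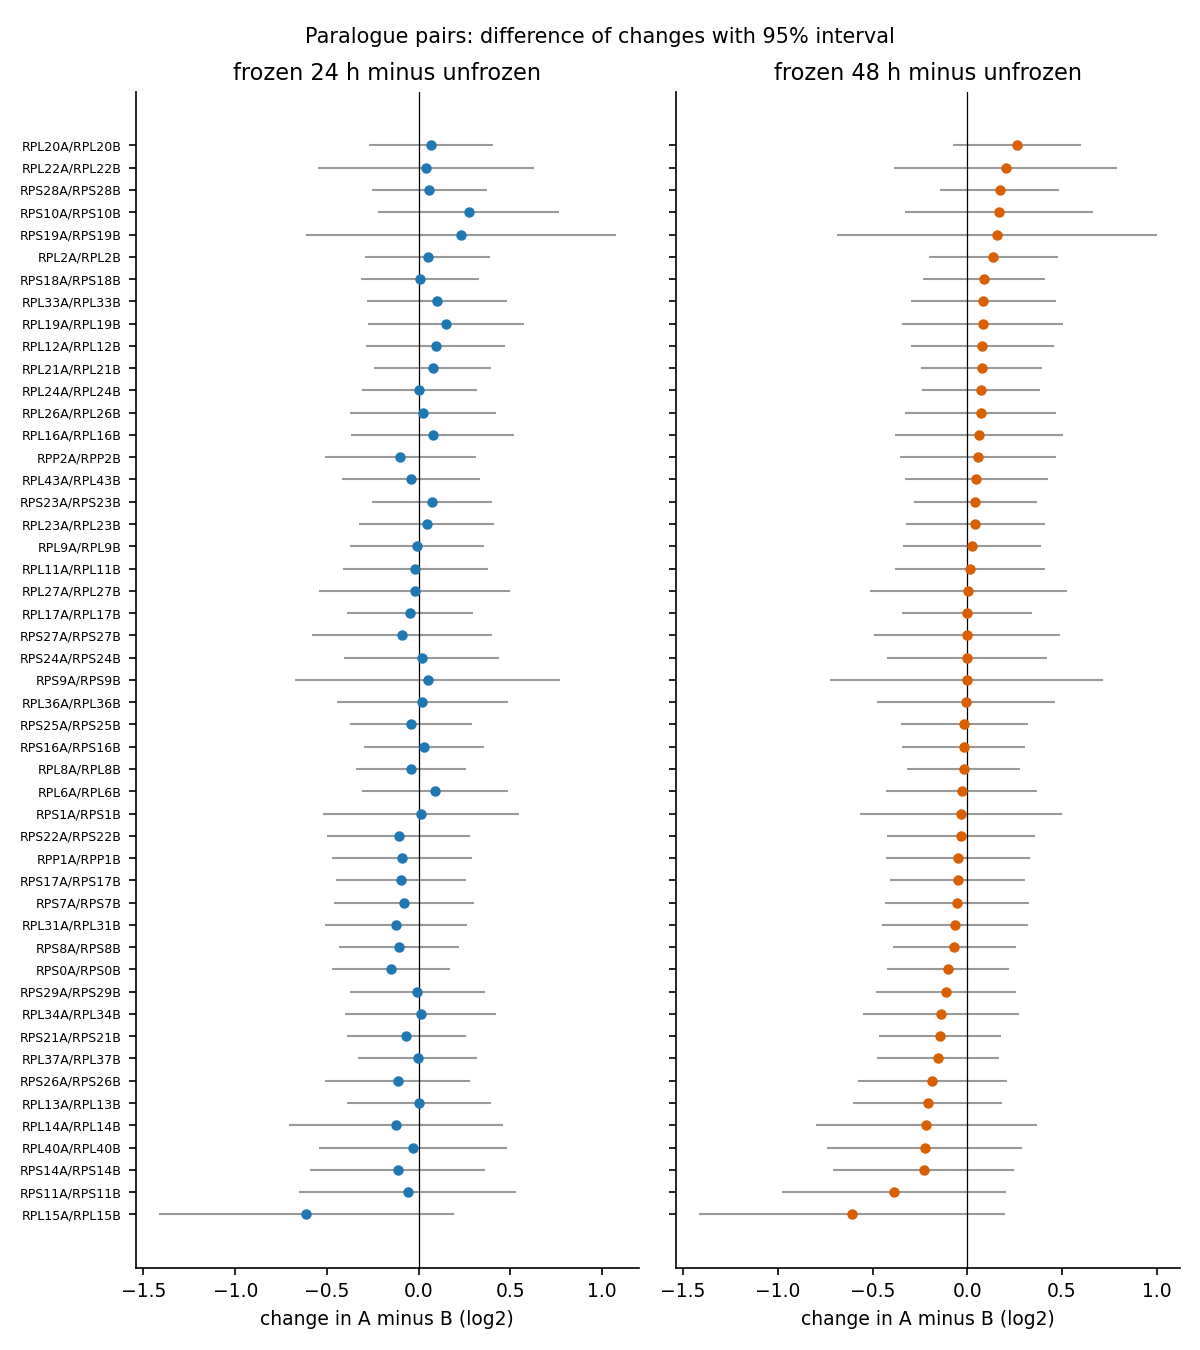
Change in the A over B log2 ratio between frozen and unfrozen arrays (horizontal axis), with its 95% interval, for each of 49 paralogue pairs (vertical axis, sorted by the 48 h value), at 24 h (left) and 48 h (right). All 49 intervals include 0 at both times, and the points nearest the left edge are RPL15A/RPL15B.

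The pair with the largest change was RPL15A/RPL15B. Its log2 ratio was 4.14, 4.51 and 3.92 on unfrozen arrays, 3.81, 3.90 and 3.02 on 24 h arrays, and 4.25, 3.58 and 2.91 on 48 h arrays. The 24 h arrays lay below the unfrozen ones and the 48 h arrays overlapped them. The change was -0.61 ± 0.36 at both times (SE, n = 3 a group, limma adjusted p = 0.617 and 0.454). The probe sets of this pair lay further apart in signal than those of any other pair.

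RPL20A/RPL20B, a large subunit pair, had the smallest p at 48 h. Its ratio was -0.19, -0.28 and -0.24 on unfrozen arrays, -0.17, -0.17 and -0.17 on 24 h arrays, and 0.24, -0.09 and -0.08 on 48 h arrays. All 6 frozen arrays were above the 3 unfrozen ones, at 48 h mostly through replicate 1. The changes were 0.07 ± 0.15 and 0.26 ± 0.15 (SE, n = 3 a group, limma adjusted p = 0.915 and 0.439). RPS28A/RPS28B also cleared the unfrozen arrays at 48 h, with ratios of 0.47, 0.38 and 0.46 on 48 h arrays and 0.36, 0.29 and 0.15 on unfrozen arrays, a change of 0.17 ± 0.14. RPS26A/RPS26B, for a protein at the messenger RNA exit channel, was chosen after its values were seen as the only pair below the unfrozen arrays at 48 h, with 0.56, 0.58 and 0.19 on 48 h arrays against 0.64, 0.62 and 0.61 on unfrozen arrays. Of the 49 pairs, 1 lay above and 1 below the unfrozen arrays at 24 h, and 2 above and 1 below at 48 h. Of the 5396 genes tested, 659 lay above and 628 below at 24 h, and 642 above and 572 below at 48 h. The gene counts move with the scaling of the arrays, whereas a pair's ratio does not move with a single factor per array. The counts of pairs and of genes are therefore not a like comparison, and neither an excess nor a lack of pairs is read from them.

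The other pairs with the smallest p were within 0.4 of no change. RPS11A/RPS11B changed in ratio by -0.06 ± 0.26 at 24 h and -0.39 ± 0.26 at 48 h, RPL13A/RPL13B by 0.00 ± 0.17 and -0.21 ± 0.17, and RPS10A/RPS10B by 0.27 ± 0.22 and 0.17 ± 0.22. RPS0A/RPS0B changed by -0.15 ± 0.14 and -0.10 ± 0.14, RPL19A/RPL19B by 0.15 ± 0.19 and 0.08 ± 0.19, and RPS8A/RPS8B by -0.11 ± 0.14 and -0.07 ± 0.14 (SE, n = 3 a group). None of these passed the test, and all had arrays that overlapped between groups.

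The effect of a further day in the frozen state was tested directly. Between 48 h and 24 h frozen, 0 of 127 members were called, against 0% of all genes, and 0 had an unadjusted p under 0.05. The median difference of 48 h minus 24 h was -0.11 (range -0.30 to 0.04), with 120 of 127 members below 0. In the 108 genes of like brightness it was -0.05, with 76 of 108 below 0. These frozen groups share the unfrozen arrays in the values above, so the likeness of their differences from unfrozen is not a separate result.

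The regulators of these genes were measured on the same arrays. Of 17 listed regulators, 0 were called at 24 h or 48 h, against 1.00% and 2.91% of all genes. Their median differences were -0.44 and -0.20. RAP1, the factor that binds most ribosomal protein promoters, had 8.81, 8.88 and 8.34 on unfrozen arrays, 7.87, 8.18 and 8.12 on 24 h arrays and 8.04, 8.10 and 7.41 on 48 h arrays. All 6 frozen arrays lay below the unfrozen ones, and the differences were -0.62 ± 0.23 and -0.83 ± 0.23 (SE, n = 3 a group, limma adjusted p = 0.32 and 0.0924). FHL1, which recruits the coactivator Ifh1 to these promoters, differed by -0.44 ± 0.21 and -0.72 ± 0.21, with frozen arrays of 6.38 to 7.05 below unfrozen arrays of 7.18 to 7.58. TOD6, a repressor of ribosome synthesis genes, differed by 0.38 ± 0.17 at 24 h and 0.18 ± 0.17 at 48 h.

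Proteins that chaperone or import single ribosomal proteins were measured too. Of 12 such genes, 0 were called at either time, against 1.00% of all genes at 24 h and 2.91% at 48 h. Their medians were 0.02 at 24 h and -0.12 at 48 h. The smallest p belonged to SYO1 (0.37 ± 0.19), which imports Rpl5 and Rpl11 together, and ACL4 (0.26 ± 0.20), the chaperone of Rpl4, at 24 h, and to BCP1 (-0.43 ± 0.17), the chaperone of Rpl23, and TSR4 (0.26 ± 0.17), the chaperone of Rps2, at 48 h (SE, n = 3 a group). None of these 4 passed the test.

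Among 21 measured elongation and ribosome-associated factors of 23 listed, 0 were called at 24 h and 1 fell at 48 h. Over all genes, 1.00% and 2.91% were called. The median differences of these factors were -0.33 and -0.40. The gene that fell was ANB1, which encodes the form of the elongation factor eIF5A made when oxygen is scarce. It had 12.62, 12.75 and 11.26 on unfrozen arrays, 10.71, 11.24 and 9.62 on 24 h arrays and 9.98, 10.28 and 9.58 on 48 h arrays. All frozen arrays lay below the unfrozen ones, and the differences were -1.69 ± 0.47 at 24 h and -2.26 ± 0.47 at 48 h (SE, n = 3 a group, limma adjusted p = 0.164 and 0.0347). When single arrays were left out, the 48 h call was lost without any of 6 arrays (adjusted p from 0.0551 to 0.169), namely frozen 24 h replicate 1, the 3 frozen 48 h replicates and unfrozen replicates 1 and 2. HYP2, the form made in air, differed by -0.34 ± 0.32 and -0.46 ± 0.32. TMA10, for a protein found with ribosomes, differed by 1.75 ± 0.63 and 1.45 ± 0.63, without passing the test. TMA10 passed at both times when frozen 48 h replicate 1 was left out (1.75 at 24 h and 2.27 at 48 h). It also passed at 24 h, and not at 48 h, in the values as deposited (2.04, limma adjusted p = 0.0415) and in a fit of the 2 compared groups alone (limma adjusted p = 0.0413). ANB1 passed at 24 h when unfrozen replicate 3 was left out (-2.16, limma adjusted p = 0.0432) and without replicate 3 in each group (-1.71, limma adjusted p = 0.00931).

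RPP1, the RNase P gene that shares only the symbol pattern, had 8.13, 8.09 and 7.94 on unfrozen arrays, 8.21, 8.33 and 7.64 on 24 h arrays and 8.28, 8.08 and 7.52 on 48 h arrays. Its differences were 0.01 ± 0.24 and -0.09 ± 0.24 (SE, n = 3 a group, limma adjusted p = 0.994 and 0.883).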

How the data were processed

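Per the labels' protocols, RNA enriched for poly(A) tails was hybridised to single-colour Affymetrix arrays. The deposited file holds linear intensities, 1 per probe set, which the submitters' processing notes tie to GCOS, with no version. GeneSpring 7.3.1, a chip-wise setting to the 50th percentile and a gene-wise division by control samples are named in the labels, but the deposited intensities differ in median between arrays and are no ratios. The array also carries fission yeast probe sets, of which 1746 served as background.

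Intensities were log2-transformed and arrays brought to 1 median over 5498 S. cerevisiae probe sets. Genes with a mean above 2.21 (4.64 on the linear scale) were tested, each by its probe set with the highest mean, which left 5396 genes. Differences were fitted by limma (version 3.58.1, R 4.3.3; means of the 3 groups over 9 arrays, empirical Bayes with a trend, two-sided, Benjamini-Hochberg over all genes tested, threshold 0.05). Of the members, 103 were read by a probe set of the ordinary type and 24 by 1 that can bind related transcripts (18 of type s_at, 6 of type x_at). Among the 20 members with 2 probe sets, both gave the same sign at both times, which says little as nearly all members were below 0. The gap between the 2 had a median size of 0.05 at 24 h and 0.08 at 48 h. The probe sets of RPS11B gave -0.18 and -0.52 at 48 h, and those of RPL18B correlated at 0.17 over the arrays. The A over B ratio used ordinary probe sets of each gene, fitted without a trend together with all genes.

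The members, gene lists and named-gene rule were chosen with earlier results of these data known. Named are the 3 highest and 3 lowest differences per subunit and time, all stalk genes, the 5 pairs with the smallest p per time, and for each other list the 2 genes with the smallest p. Lists were described by counts and medians, with no test of their own. Alternatives were 3 other scalings, a pseudocount of 1.71, no filter, the other trend setting, a fit of the compared groups alone, a replicate block, averaged probe sets and each array left out. The scaling to genes of like brightness, the fits without frozen replicate 3 or without replicate 3 in each group and the pairs by brightest probe set were added after seeing the data. Within a group, correlations between arrays were 0.906 to 0.982, and identical values made up at most 0.00915% between any 2 arrays. Replicate numbers did not pair frozen with unfrozen arrays (correlations of deviations from the group means -0.38, 0.25 and -0.12 at 24 h, -0.23, 0.13 and -0.07 at 48 h). They paired the 24 h and 48 h arrays by the data alone (0.59, 0.39 and 0.79). Among the members, however, the median was lowest on replicate 3 in the unfrozen group and in both frozen groups. The fit with a replicate block is therefore given below. Symbols came from the platform annotation, updated through the RefSeq gene table; no coordinates or sequences were used. The number of arrays limits the precision.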

Additional observations from a re-analysis of the deposited data

Results flagged for a closer look

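Ribosomal RNA probe sets, which lie outside the comparisons of ribosomal protein genes, gave a signal in poly(A)-enriched RNA that was higher on frozen than on unfrozen arrays. The median scaled log2 signal of the 17 probe sets averaged 9.35 ± 1.28 at 24 h, against 6.41 ± 0.84 on unfrozen arrays (SD, n = 3 each). It averaged 9.07 ± 1.24 at 48 h, against the same 6.41 on unfrozen arrays (SD, n = 3). The lowest frozen array had 7.64 and the highest unfrozen array 7.02, and no relation to the ribosomal protein values was tested.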

How the results depend on the processing

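The count of 0 members called was kept at both times and between 48 h and 24 h under every alternative run except 2: at 48 h, 4 members were called with arrays set to the median of all probe sets and 1 without replicate 3 in each group. The shares of all genes called in those 2 runs are not given here, so these calls are not read as a result about the members. No paralogue pair was called under any alternative. The member median stayed below 0 throughout, from -0.73 to -0.02 at 24 h and -0.86 to -0.04 at 48 h over the scalings. Leaving out each array in turn gave -0.63 (without frozen 24 h replicate 2) to -0.055 (without frozen 24 h replicate 3) at 24 h and -0.66 to -0.21 (without frozen 48 h replicate 3) at 48 h, with counts of 0 for members and pairs. With the replicate block the medians were -0.40 and -0.52, 0 members were called (lowest adjusted p = 0.265 and 0.0686), and 113 and 211 of all genes. An unadjusted p under 0.05 was then reached by 18 (14.2%) and 71 members (55.9%), against 13.8% and 20.6% of all genes and 12.0% and 26.9% of the 108 genes of like brightness. ANB1 passed at 24 h with the block (limma adjusted p = 0.00712).

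Single genes changed sign under some alternatives. With quantile normalization the 24 h values were 0.052 for RPS19A, 0.087 for RPS22B, 0.24 for RPL39, 0.12 for RPL12A and 0.028 for RPP2B, and the 48 h values were 0.039 for RPS19A, 0.040 for RPS22B, 0.12 for RPL39 and 0.014 for RPL12A. In the values as deposited the 24 h values were 0.096 for RPS14B, 0.086 for RPS19A, 0.038 for RPS22B, 0.20 for RPL39 and 0.087 for RPL12A, and the 48 h values were 0.23 for RPS14B, 0.18 for RPS19A, 0.097 for RPS22B, 0.38 for RPL15B, 0.19 for RPL39 and 0.12 for RPL12A. With the median of all probe sets RPL15B was at -0.23 and ACL4 at -0.060 at 24 h, and TSR4 at -0.074 at 48 h, while RPS10A (-1.05) and RAP1 (-1.16) passed at 48 h. Against genes of like brightness the 24 h values were 0.12 for RPS14B, 0.11 for RPS19A, 0.060 for RPS22B, 0.22 for RPL39 and 0.11 for RPL12A, and the 48 h values were 0.14 for RPS14B, 0.097 for RPS19A, 0.015 for RPS22B, 0.30 for RPL15B, 0.11 for RPL39 and 0.036 for RPL12A.

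Without both frozen replicate 3 arrays the 24 h values were 0.047 for RPS14B, 0.092 for RPL39, 0.0017 for RPL12A and 0.028 for RPP1B, and RPS14B was at 0.13 at 48 h. Without replicate 3 in each group RPS14B was at 0.0089 at 24 h and 0.092 at 48 h, and RPL15B at 0.038 at 48 h. With single arrays left out, the 24 h ranges were -0.37 to 0.047 for RPS14B, -0.56 to 0.097 for RPS19A, -0.41 to 0.092 for RPL39, -0.36 to 0.0017 for RPL12A and -0.65 to 0.028 for RPP1B. The 48 h ranges were -0.52 to 0.13 for RPS14B, -0.60 to 0.063 for RPS19A and -0.13 to 0.032 for RPL15B. The cause of these changes was not tested. At 3 arrays a group, a difference of 2 standard errors (median standard error of a member 0.38) was not enough for a call, since p was adjusted over all genes. At 48 h, RPL22B (-0.58 ± 0.22) and RAP1 (-0.83 ± 0.23) lay beyond that and were not called.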
